A study of Homo sapiens with 8 samples.

Results

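The 10 cell surface heparan sulfate proteoglycans of the syndecan and glypican families, SDC1 to SDC4 and GPC1 to GPC6, were taken by symbol from a table of 23391 genes. The family was chosen by the measured values of SDC2 in these libraries, whose level was higher with Esrrb and lower with DY131 in DU145-Esrrb, and the other members were added by name. The values of SDC2 are therefore given as a description with no test, and counts of altered members run over the other 9. DU145 is a prostate cancer cell line. Cells were stably transfected with an Esrrb expression vector (DU145-Esrrb) or with the empty pcDNA3.1-zeo vector (DU145-pc3.1), kept on 150 μg/ml zeocin for 3 weeks and used as pools of transfectants, not as single clones. Both pools were sequenced untreated and after 3 μM DY131, a synthetic ligand of Esrrb and Esrrg, with 2 biological replicates in each of the 4 groups. Treated and untreated cells were kept in medium with charcoal-stripped serum, and the length of the DY131 exposure is not given in the sources used here.

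Syndecans cross the plasma membrane and have a short cytoplasmic tail, whereas glypicans are held at the outer leaflet by a lipid (GPI) anchor. Both carry heparan sulfate, a sulfated sugar chain that is built in the Golgi by a series of enzymes and that binds growth factors such as the FGFs, morphogens and matrix proteins at the cell surface. In epithelia SDC1 and SDC4 are common syndecans, SDC2 is better known from fibroblasts and endothelium and SDC3 from the nervous system, and shedding of syndecan ectodomains by metalloproteases releases them from the cell.

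The libraries held between 7858743 and 11551690 counts, the DY131-treated DU145-Esrrb pair being the shallowest (7858743 and 9054498). ESRRB counts went with the labels. They were 3 and 0 in DU145-pc3.1 and 0 and 1 in its DY131-treated pair, against 104 and 99 in DU145-Esrrb and 105 and 143 in DY131-treated DU145-Esrrb. Epithelial markers (KRT8, KRT18, KRT19, KRT7, EPCAM and CDH1) passed the count filter and the basal keratin KRT5 had at most 1 count in a library, while the prostate luminal markers KLK2 and KLK3 had no count in any library. Of the 6 fibroblast markers 1 passed the filter. The fibroblast list summed to 2.94 and 3.00 cpm in DY131-treated DU145-Esrrb and to between 3.77 and 5.98 cpm in the other 6 libraries. Of the 7 immune and endothelial markers 2 passed, and that list summed to between 2.48 and 3.40 cpm in the other 6 libraries and to 1.04 and 1.70 cpm in DY131-treated DU145-Esrrb. The untreated and treated comparisons share control libraries, so their values are set side by side and not correlated. In bulk RNA, a change in the share of cells that express a gene and a change in RNA per cell cannot be told apart.

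Of the 10 members, 9 had at least 1 count and 7 passed the filter of 1 cpm (counts scaled to library size, the unit of levels here) in at least 2 libraries. GPC5 had no count in any library, and GPC3 and GPC6 had at most 3 and at most 8 counts in a library, so these 3 were not tested. GPC4 passed the filter only through DY131-treated DU145-pc3.1, the group in which it was highest, and for that reason had to differ from the others there. Its values in comparisons that use that group are a description with no test. In the other groups every library was below 1 cpm for GPC4, and its values there are a description too. No 50-base window of SDC1 to SDC4, GPC1, GPC2 or GPC4 was found in an annotated transcript of another gene in GENCODE 29. Copies with mismatches or outside the annotation were not searched. In GENCODE 29 on GRCh38 the transcripts matched by identifier were SDC1 at chr2:20200797-20225433 (minus strand, 6 exons), SDC3 at chr1:30869467-30908761 (minus strand, 5 exons), SDC4 at chr20:45325288-45348424 (minus strand, 5 exons), GPC1 at chr2:240435671-240468078 (plus strand, 9 exons) and GPC4 at chrX:133300103-133415490 (minus strand, 9 exons). The counts themselves were made on hg18.

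**Figure D1:**
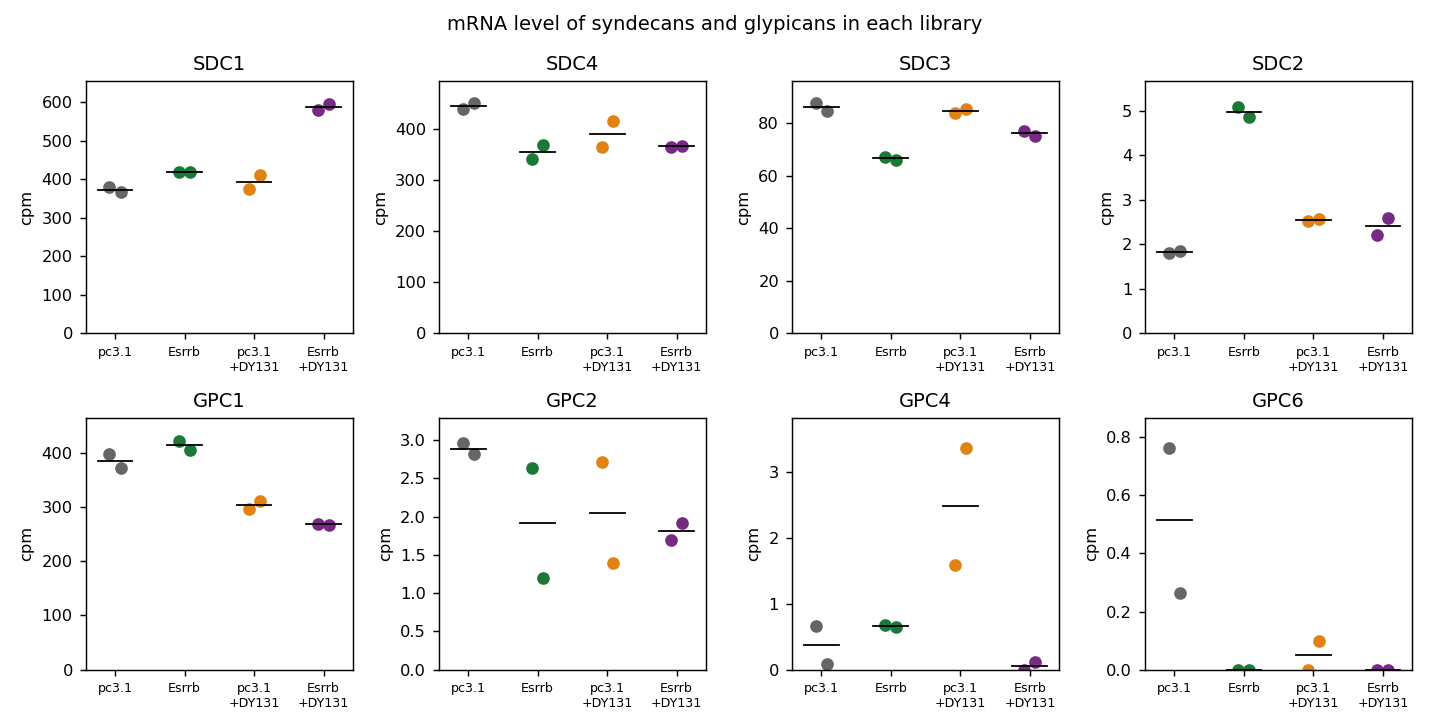
Level of 8 members in cpm (vertical axis, from 0, with a scale of its own in each panel) in each library, with points for the libraries of each of the 4 groups and a line for their mean (n = 2). SDC1 is highest in DY131-treated DU145-Esrrb (579 and 595 cpm) and GPC1 lowest there (268 cpm in both), while SDC2 is highest in untreated DU145-Esrrb and GPC4 in DY131-treated DU145-pc3.1. GPC3 and GPC5 are not drawn.

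Per kilobase of the longest annotated transcript, the basis of the totals and shares here, 3 members made up nearly all of the family in every group. In DU145-pc3.1 the 10 members summed to 402.5 ± 4.52 cpm per kb (SD, n = 2), of which SDC4 gave 42.3% ± 1.36, SDC1 28.1% ± 0.320 and GPC1 25.7% ± 0.962. SDC2 gave 0.121% ± 0.00304 of this sum. The family total was 387.1 ± 3.88 cpm per kb in DU145-Esrrb, 365.9 ± 24.8 in DY131-treated DU145-pc3.1 and 403.7 ± 3.93 in DY131-treated DU145-Esrrb, so it stayed within a narrow range while its makeup shifted. SDC1 had the largest share in DY131-treated DU145-Esrrb, at 44.2% ± 0.386, and GPC1 the smallest of its 4 shares there, at 17.9% ± 0.184. By level per kilobase the order of these 3 was SDC4, SDC1 and GPC1 in every group but the last, where SDC1 stood above SDC4, and neighbours in the order did not overlap between libraries of a group. The share of SDC3 depends on the transcript used: the longest one of 6392 bases puts it at 3.35% in DU145-pc3.1, and the transcript of 1580 bases that its identifier matched puts it at 12.3%.

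**Figure D2:**
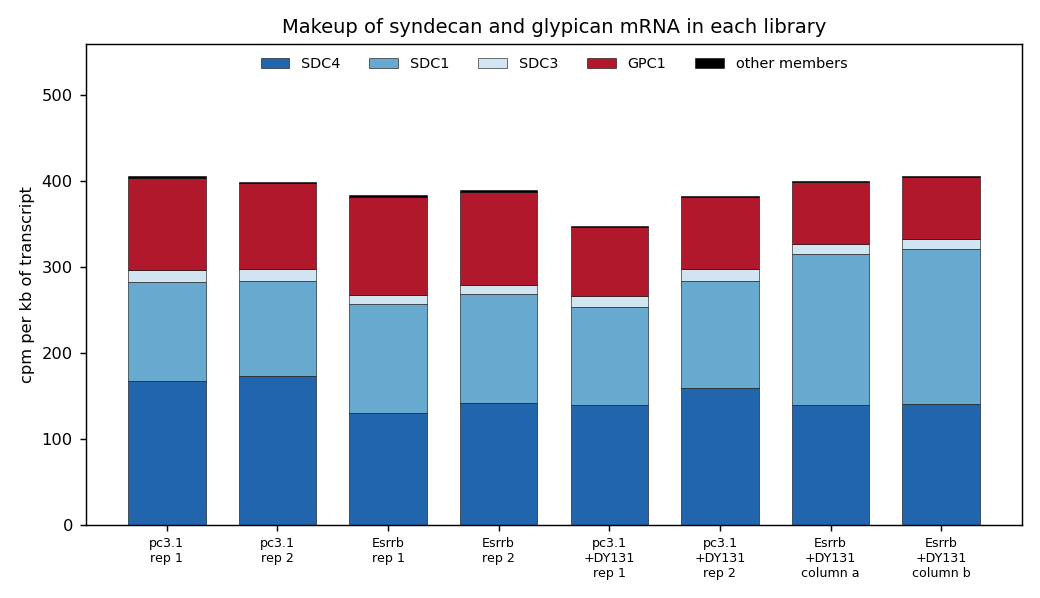
Syndecan and glypican mRNA in each library as stacked bars, in cpm per kilobase of the longest annotated transcript. The total stays close to 400 cpm per kb in most libraries, and in the last pair the SDC1 part is the largest and the GPC1 part the smallest.

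The promoters of the 3 abundant members and of GPC4, whose differences were the largest, are shown to give the sequence context of these genes. Each is the 250 bases before a transcript start from RefSeq (GRCh38.p14), written 5′ to 3′ on the strand of the gene, with GGGCGG and its reverse complement CCGCCC in capitals.
SDC1 (chr2:20225476-20225725, minus strand): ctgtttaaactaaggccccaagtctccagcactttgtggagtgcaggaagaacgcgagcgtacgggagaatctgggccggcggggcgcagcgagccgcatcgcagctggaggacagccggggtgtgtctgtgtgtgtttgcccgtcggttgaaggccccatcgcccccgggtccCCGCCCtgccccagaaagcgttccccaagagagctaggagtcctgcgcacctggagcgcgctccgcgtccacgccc
SDC4 (chr20:45348425-45348674, minus strand): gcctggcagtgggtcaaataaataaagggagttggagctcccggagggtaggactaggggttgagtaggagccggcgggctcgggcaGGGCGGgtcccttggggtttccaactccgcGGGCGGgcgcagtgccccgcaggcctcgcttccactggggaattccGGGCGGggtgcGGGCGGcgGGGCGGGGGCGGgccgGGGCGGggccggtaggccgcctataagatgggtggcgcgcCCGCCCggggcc
GPC1 (chr2:240435413-240435662, plus strand): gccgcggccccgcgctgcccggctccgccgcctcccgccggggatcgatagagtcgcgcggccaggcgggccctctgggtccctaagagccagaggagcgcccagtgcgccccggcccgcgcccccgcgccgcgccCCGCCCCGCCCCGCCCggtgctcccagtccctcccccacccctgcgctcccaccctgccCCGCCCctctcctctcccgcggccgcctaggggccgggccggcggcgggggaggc
GPC4 (chrX:133415490-133415739, minus strand): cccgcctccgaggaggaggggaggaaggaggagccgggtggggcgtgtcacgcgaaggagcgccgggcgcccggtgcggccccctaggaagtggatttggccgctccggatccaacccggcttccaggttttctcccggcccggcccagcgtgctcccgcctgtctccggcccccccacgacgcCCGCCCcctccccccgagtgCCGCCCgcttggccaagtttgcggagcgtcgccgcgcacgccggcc

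These windows hold 1 GGGCGG match for SDC1, 8 for SDC4, 4 for GPC1 and 2 for GPC4 on both strands together. Over all 35116 promoter windows of this length, 42.6% held at least 1 such match, and over the windows of tested genes 63.3%. The estrogen related receptor element TNAAGGTCA (either strand) and its core AAGGTCA, which it contains, were looked for in 9 windows of 8 members. Windows of SDC2 and GPC3 were not used here. Neither was found in these 9 windows, where 0.854% of all windows held the first and 3.44% the second. TATAAA, held by 10.7% of all windows, was found once each in the windows of GPC5 and GPC6. A match or its absence describes only these letters in these 250 bases.

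Did Esrrb alone alter the family? DU145-Esrrb was set against DU145-pc3.1, both untreated. SDC3 and SDC4 fell, and SDC1, GPC1 and GPC2 did not pass the test. This was edgeR's quasi-likelihood test with an adjusted p under 0.05 over 13856 genes. In this comparison 4.18% of all tested genes passed, 1.68% higher and 2.50% lower. Leaving SDC2 aside, no tested member reached a Log2FC of 1 in either direction with an adjusted p under 0.05. This is the threshold the study used, and 0.577% of genes passed it (0.180% higher and 0.397% lower).

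SDC4, the syndecan of focal adhesions, stood at 439 and 452 cpm in DU145-pc3.1 and at 341 and 369 cpm in DU145-Esrrb. Both Esrrb libraries were below both controls, and the Log2FC was -0.33 ± 0.066 (SE), with an adjusted p of 0.00941. SDC3 was at 87.9 and 84.5 cpm in the control pool and at 67.3 and 65.8 cpm in DU145-Esrrb. Its groups did not overlap either, and its Log2FC of -0.37 ± 0.064 had an adjusted p of 0.00338. Both calls were lost without some single libraries. For SDC3 the adjusted p was 0.0596 without DU145-pc3.1 replicate 1, 0.0501 without DU145-Esrrb replicate 1 and 0.0603 without DU145-Esrrb replicate 2. For SDC4 it was 0.0604 and 0.108 without DU145-pc3.1 replicate 1 or 2, and 0.186 without DU145-Esrrb replicate 1.

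SDC1, the main syndecan of epithelia, was at 378 and 367 cpm in DU145-pc3.1 and at 418 and 419 cpm in DU145-Esrrb. Its libraries did not overlap, but the Log2FC of 0.17 ± 0.059 did not pass the test (adjusted p = 0.142). It passed in a fit of only the 4 libraries compared (adjusted p = 0.0226), and when DY131-treated DU145-pc3.1 replicate 1 (adjusted p = 0.00689) or replicate 2 (adjusted p = 0.00771) was left out of the shared model. GPC1, a glypican of many adult tissues, was at 398 and 371 cpm against 422 and 405 cpm, a Log2FC of 0.10 ± 0.057 (adjusted p = 0.386). GPC2, known from the developing nervous system, had 31 and 32 counts in the control pool and 31 and 13 in DU145-Esrrb, and its Log2FC of -0.57 ± 0.36 was within the spread of its libraries (adjusted p = 0.464).

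The low glypicans gave few reads. GPC4 had 7 and 1 counts in DU145-pc3.1 and 8 and 7 in DU145-Esrrb, with a Log2FC of 0.83 ± 0.77 as a description. GPC6 had 8 and 3 counts in DU145-pc3.1 and none in either DU145-Esrrb library. No test was made of GPC6, and the 95% counting interval of its ratio, DU145-pc3.1 over DU145-Esrrb, started at 2.59. GPC3 had 0 and 2 counts in each of these groups.

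SDC2, a syndecan with a known role in cell migration and matrix assembly, had 19 and 21 counts in DU145-pc3.1 and 60 and 53 in DU145-Esrrb. In cpm these were 1.81 and 1.85 against 5.09 and 4.87. After DY131 the counts were 27 and 26 in DU145-pc3.1 and 17 and 23 in DU145-Esrrb, or 2.52 and 2.58 cpm against 2.22 and 2.60 cpm. The level was therefore highest in untreated DU145-Esrrb and lowest in untreated DU145-pc3.1, and the treated pairs overlapped. As a description, the Log2FC was 1.44 ± 0.24 with Esrrb, 0.47 ± 0.28 with DY131 in DU145-pc3.1, -1.04 ± 0.24 with DY131 in DU145-Esrrb and -0.08 ± 0.28 with Esrrb under DY131. Even at its highest, SDC2 gave 0.343% ± 0.0141 of the family's mRNA per kilobase.

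The genes whose log2 cpm followed SDC2 most closely over the 8 libraries were PITPNC1 (Pearson r = 0.963), EXOC5 (r = 0.951), DUOX1 (r = 0.948), BST1 (r = 0.944) and ZNHIT2 (r = 0.943). The 8 points share depth, cell pool and treatment, and these genes are the top of 13856, so the coefficients are a description only. PITPNC1, a phosphatidylinositol transfer protein, lay between 24.8 and 27.3 cpm in DU145-Esrrb and between 14.6 and 19.0 cpm elsewhere. EXOC5, a subunit of the exocyst, was also highest in the DU145-Esrrb pair, over a much smaller range, from 190.9 to 207.6 cpm. BST1 was at 14.9 and 13.8 cpm in DU145-Esrrb and between 6.25 and 7.69 cpm in the other 6 libraries.

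DY131 was given to DU145-pc3.1 to ask what the ligand did without the transgene. GPC1 and SDC4 fell among the 5 tested members other than SDC2 and GPC4. In this comparison 37.4% of all tested genes passed, 18.9% higher and 18.5% lower. Neither reached a Log2FC of 1, which 4.19% of genes did in either direction (1.02% higher and 3.16% lower). These were 580 genes, whereas the study, with its exact test, reported no gene altered by DY131 in control cells. The cause of this difference was not tested.

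GPC1 was at 297 and 312 cpm after DY131, against 398 and 371 cpm before it. The treated libraries lay below both controls, with a Log2FC of -0.34 ± 0.058 (adjusted p = 0.000306), or -0.20 with an offset for transcript length and GC content (adjusted p = 0.0222). SDC4 fell from 439 and 452 cpm to 366 and 415 cpm, a Log2FC of -0.19 ± 0.066 (adjusted p = 0.0321). The call on SDC4 did not hold with an offset for exon junction share (Log2FC -0.16, adjusted p = 0.0781). Nor did it hold without DU145-pc3.1 replicate 1 or 2 (adjusted p = 0.0889 and 0.161), without DY131-treated DU145-pc3.1 replicate 1 (0.205), or without either library of DY131-treated DU145-Esrrb (0.0666 each). The treated replicates of DU145-pc3.1 differed more from each other over all genes than the other pairs did, with a chi-square per degree of freedom of 7.51 against 1.31 to 2.70.

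SDC1 was at 373 and 412 cpm after DY131 and overlapped its controls (Log2FC 0.07 ± 0.060, adjusted p = 0.348). Without DY131-treated DU145-pc3.1 replicate 1 its Log2FC was 0.16 with an adjusted p of 0.0198. SDC3, at 83.7 and 85.5 cpm, overlapped its controls as well (Log2FC -0.03 ± 0.064, adjusted p = 0.776). With the length and GC offset both had positive Log2FC that passed, 0.22 for SDC1 (adjusted p = 0.0221) and 0.18 for SDC3 (adjusted p = 0.0331). GPC2 had 29 and 14 counts, and its Log2FC was -0.48 ± 0.36 (adjusted p = 0.319).

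GPC4, a glypican known as a modulator of Wnt and BMP signals and of synapse formation, had 17 and 34 counts in DY131-treated DU145-pc3.1, against 7 and 1 before treatment. Both treated libraries were above both controls, and the Log2FC was 2.71 ± 0.59, a difference fixed in part by the filter. It was 4.63 without DU145-pc3.1 replicate 1 and 1.86 without replicate 2. The ratio of summed counts, scaled to library size, was 6.54, as a description. At 2.48 ± 1.26 cpm (SD, n = 2) GPC4 remained a low transcript. GPC6 had 0 and 1 counts after treatment against 8 and 3 before, and the level before was 10.7-fold higher, with a counting interval of 1.56 to 462. GPC3 had 2 and 3 counts.

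In DU145-Esrrb, DY131 raised SDC1 and SDC3 and lowered GPC1, among the tested members other than SDC2 and GPC4. Of all tested genes 58.7% passed in this comparison, 29.2% higher and 29.5% lower, so these calls stand beside a background of that size. None of SDC1, SDC3 and GPC1 reached a Log2FC of 1 in either direction, which 12.0% of genes did (2.98% higher and 9.04% lower). The Log2FC of all genes was related to the share of 50-base windows that cross an exon junction (Spearman rho -0.375 over 13606 genes, as a description), and this share is at the 19.2 to 60.2 percentile in the members. Values with an offset for that share, or for transcript length and GC content, are given beside some of the results.

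SDC1 rose from 418 and 419 cpm to 579 and 595 cpm, its highest level in the 4 groups. The groups were far apart beside their spread, and the Log2FC was 0.49 ± 0.059 (adjusted p = 4.6e-06). With the junction offset it was 0.37 (adjusted p = 8.45e-05). SDC3 was at 77.2 and 75.2 cpm, above 67.3 and 65.8 cpm before treatment (Log2FC 0.19 ± 0.067, adjusted p = 0.0212, and 0.63 with the length and GC offset). The SDC3 call was lost with DESeq2 (adjusted p = 0.0913) and with library size alone (0.0941). It was also lost when any of the libraries compared was left out, where the Log2FC was 0.17 to 0.21. SDC4, at 364 and 367 cpm, lay within the range of its controls (Log2FC 0.04 ± 0.066, adjusted p = 0.589), and the junction offset turned its Log2FC to -0.07.

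GPC1 fell from 422 and 405 cpm to 268 and 268 cpm, its lowest level in the 4 groups. The Log2FC was -0.63 ± 0.059 (adjusted p = 3.26e-07), and -0.65 with the junction offset and -0.36 with that for length and GC content (adjusted p = 0.000144). GPC4 had 8 and 7 counts before treatment and 0 and 1 after it, a Log2FC of -3.21 ± 1.24 as a description. The summed level before treatment was 11.4-fold higher, with a counting interval of 1.76 to 480. The Log2FC of GPC4 was -2.43 without treated library a and -5.81 without treated library b. GPC2 had 13 and 17 counts against 31 and 13 (Log2FC -0.09 ± 0.42, adjusted p = 0.863), and neither GPC3 nor GPC6 had a count in the treated pair.

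**Figure D3:**
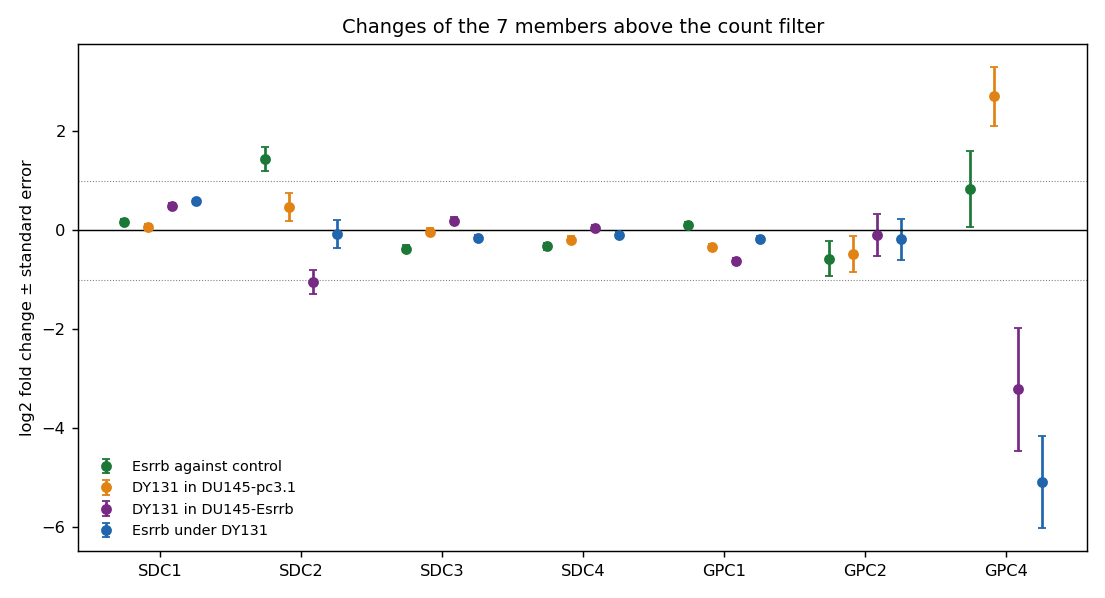
Log2FC of the 7 tested members, with bars for the standard error, in the 4 comparisons (colors). Dotted lines mark a Log2FC of 1 and -1. GPC4 spans 2.71 to -5.09 with wide errors, while the values of SDC1, SDC3, SDC4 and GPC1 stay between -0.63 and 0.58.

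With DY131 present in both pools, SDC1 was higher and GPC1 was lower in DU145-Esrrb than in DU145-pc3.1. In this comparison 50.4% of genes passed, 25.1% higher and 25.3% lower, and 8.21% also reached a Log2FC of 1 (2.15% higher and 6.06% lower), a size that neither reached. SDC1 stood at 579 and 595 cpm against 373 and 412 cpm (Log2FC 0.58 ± 0.059, adjusted p = 1.33e-06). With the junction offset, in a comparison where rho was -0.476, the Log2FC of SDC1 was 0.44. GPC1 was at 268 cpm in both DU145-Esrrb libraries against 297 and 312 cpm, and its Log2FC of -0.18 ± 0.059 had an adjusted p of 0.0172. Without treated DU145-Esrrb library a or b this became 0.08 and 0.0806, and with the length and GC offset the Log2FC was -0.06 (adjusted p = 0.444). SDC3 missed the threshold (Log2FC -0.15 ± 0.066, adjusted p = 0.0671), although without DY131-treated DU145-pc3.1 replicate 1 it passed (0.0436). SDC4 (-0.09 ± 0.066, adjusted p = 0.256) passed without that same library (Log2FC -0.20, adjusted p = 0.00422) and with the junction offset (Log2FC -0.24, adjusted p = 0.011). GPC4 had 0 and 1 counts against 17 and 34, and its summed level was 41.0-fold higher in DU145-pc3.1, as a description. The Log2FC of GPC4 was -5.09 ± 0.93, with no test because the filter selected it through the DU145-pc3.1 pair. With a library left out it ranged from -7.69 to -4.31. GPC2 had 13 and 17 against 29 and 14 counts and a Log2FC of -0.19 ± 0.42 (adjusted p = 0.744).

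Whether the DY131 effect differed between the pools was tested by the interaction of Esrrb with DY131. SDC1 had a more positive effect of DY131 in DU145-Esrrb and GPC1 a more negative one, in a test which 33.7% of genes passed, 16.1% higher and 17.6% lower. The difference in Log2FC was 0.41 ± 0.084 for SDC1 (adjusted p = 0.0016), and 0.27 with the junction offset (adjusted p = 0.0374). For GPC1 it was -0.29 ± 0.082 (adjusted p = 0.0138). The GPC1 value was lost without DU145-pc3.1 replicate 2 (adjusted p = 0.0759), DU145-Esrrb replicate 1 (0.0728) or treated DU145-Esrrb library a (0.0534) or b (0.0535), and with the length and GC offset (-0.16, adjusted p = 0.178). Neither difference reached a size of 1, which 6.28% of genes did (1.54% higher and 4.74% lower). For GPC4 the difference was -5.92 ± 1.32, as a description, and from -8.52 to -5.07 with a library left out. SDC3 (0.22 ± 0.092, adjusted p = 0.0784), SDC4 (0.23 ± 0.093, adjusted p = 0.0651) and GPC2 (0.39 ± 0.56, adjusted p = 0.628) did not pass, but SDC4 did without DY131-treated DU145-pc3.1 replicate 2 (0.33, adjusted p = 0.000534) and SDC3 with the length and GC offset (0.45, adjusted p = 0.00144).

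The enzymes that make and trim heparan sulfate were taken as 4 lists of 47 genes in all, of which 33 were tested. They start with the tetrasaccharide linker and the chain polymerases. With Esrrb alone EXT1, a subunit of the polymerase, rose from 107.5 ± 2.42 to 154.5 ± 2.43 cpm (SD, n = 2 each), with a Log2FC of 0.52 (adjusted p = 0.00015). NDST1, which removes acetyl groups and adds the first sulfates, fell from 151.4 ± 6.53 to 108.5 ± 4.27 cpm (Log2FC -0.48, adjusted p = 0.00043). NAGLU, a lysosomal enzyme of chain breakdown, rose (Log2FC 0.44, adjusted p = 0.012), and the other 30 tested enzymes did not pass. NAGLU shares 11.4% of its 50-base windows with an overlapping gene, and the call was lost without DU145-pc3.1 replicate 1 or 2 or DU145-Esrrb replicate 1. FAM20B, a kinase that primes the linker and the gene of its list with the highest mean over the 4 groups, had a Log2FC of 0.11 (adjusted p = 0.37). These 3 of 33, or 9.09%, stand beside 4.18% of all genes.

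With DY131 in DU145-pc3.1, 4 of these enzymes rose and 10 fell. In DU145-Esrrb 9 rose, HS3ST5 included, and 9 fell. These are 42.4% and 54.5% of 33, against 37.4% and 58.7% of all genes. UGDH, which makes the UDP-glucuronic acid of the chain, was the enzyme of the precursor list with the highest mean over the 4 groups. It fell from 507.3 ± 31.4 to 289.6 ± 36.7 cpm in DU145-pc3.1 (Log2FC -0.81) and from 532.0 ± 25.4 to 324.7 ± 0.689 cpm in DU145-Esrrb (Log2FC -0.71). NDST1 rose with DY131 in both pools, to 220.8 ± 14.2 cpm in DU145-pc3.1 (Log2FC 0.54, adjusted p = 9.5e-06) and to 122.9 ± 1.83 cpm in DU145-Esrrb (Log2FC 0.18, adjusted p = 0.03), so that it stood lower in DU145-Esrrb with and without the ligand. In DU145-Esrrb the NDST1 call was lost with DESeq2, with the junction offset, and without DU145-Esrrb replicate 1 or 2 or treated library a. The difference between these effects was -0.36 (adjusted p = 0.0068). HS3ST5, a 3-O-sulfotransferase, had a Log2FC of 1.43 in DU145-Esrrb, on 9 and 9 counts against 5 and 4. This is a description, because it reached the filter's 1 cpm only in libraries treated with DY131. By library total these were library a of DU145-Esrrb and replicate 1 of DU145-pc3.1. The 9 counted as risen, and the count of the sulfation list, include HS3ST5 although the filter leaves it no valid test. In 6 of 13 alternatives it did not pass. HPSE, heparanase, fell with DY131 in DU145-pc3.1 (Log2FC -0.27, adjusted p = 0.035) and in DU145-Esrrb (Log2FC -0.53, adjusted p = 0.00028).

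Of the 47 enzymes, 14 did not pass the filter and 7 had no count in any of the 8 libraries. The latter were XYLT1, one of the pair of enzymes that start the linker, the surface sulfatases SULF1 and SULF2, NDST4, HS3ST2, HS3ST3A1 and HS3ST4. A count of 0 allows up to between 0.260 and 0.382 cpm in a library (3 counts of its total). The other starting enzyme, XYLT2, fell in DU145-Esrrb with DY131 (Log2FC -0.34, adjusted p = 0.0025).

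**Figure D4:**
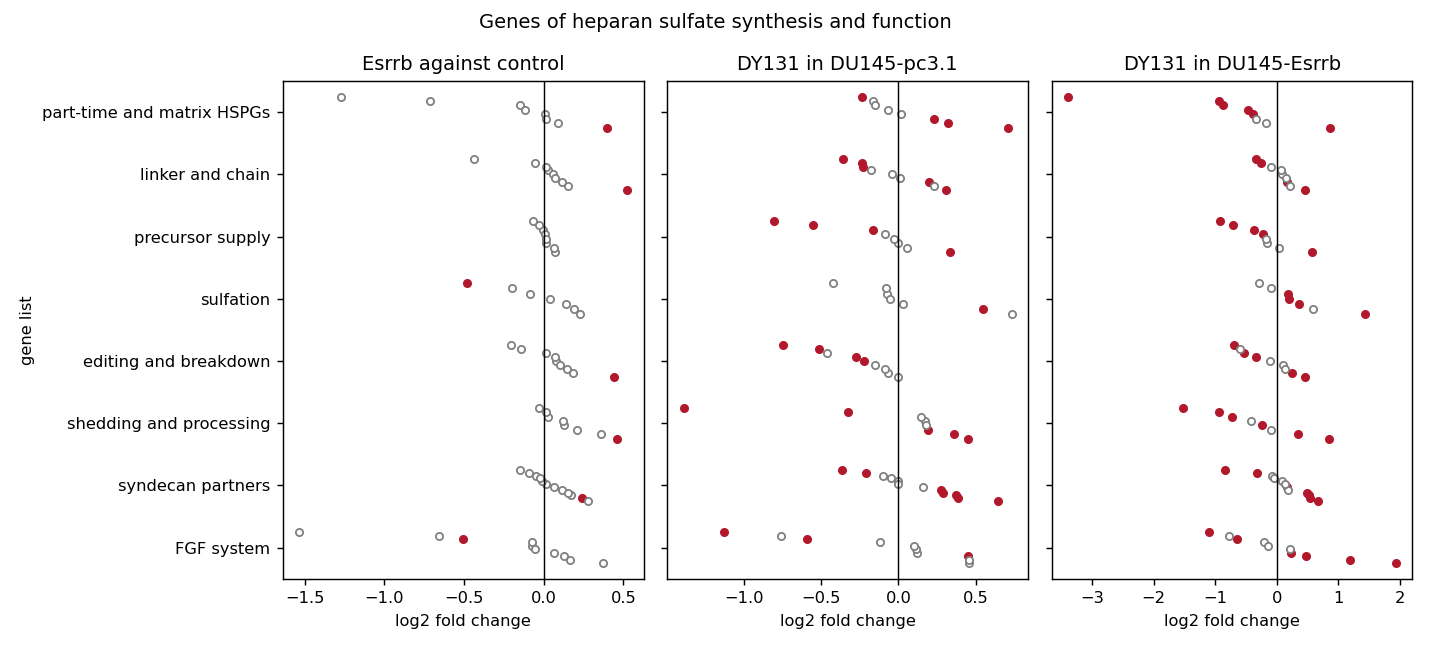
Log2FC (horizontal axis, a different scale in each panel) of the tested genes of 8 lists around the family, with Esrrb alone and with DY131 in each pool. Filled points have an adjusted p under 0.05 and open points do not. Few points are filled in the first panel, and filled points lie on both sides of 0 in most lists of the other panels.

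Other carriers of heparan sulfate were tested as a list of 8 part-time and matrix proteoglycans, all above the filter. DY131 raised 3 and lowered 1 of them in DU145-pc3.1, where 37.4% of all genes passed, and raised 1 and lowered 5 in DU145-Esrrb, where 58.7% did. CD44, a hyaluronan receptor of which some forms carry heparan sulfate, rose in both pools, from 239.2 ± 5.44 to 390.3 ± 5.38 cpm (Log2FC 0.71) and from 240.5 ± 2.13 to 435.6 ± 7.07 cpm (Log2FC 0.86). AGRN, agrin, which shares 4.26% of its windows with an overlapping gene, rose in DU145-pc3.1 (Log2FC 0.23) and fell from 566.7 ± 20.7 to 307.4 ± 1.49 cpm in DU145-Esrrb (Log2FC -0.88), and was 1.23 lower on the log2 scale in DU145-Esrrb than in DU145-pc3.1 under DY131. HSPG2, perlecan, rose with Esrrb alone (Log2FC 0.40, adjusted p = 0.038) and fell from 134.9 ± 12.5 to 70.5 ± 3.61 cpm with DY131 in DU145-Esrrb (Log2FC -0.94). The HSPG2 call with Esrrb alone was lost in 9 of 19 alternatives, among them DESeq2 and leaving out any of the 4 libraries compared. With DY131 in DU145-Esrrb, the genes with the highest exon junction share had a median Log2FC of -0.556, and those with the lowest 0.266. Of the 5 genes lowered there, this share is 32.9% in HSPG2, 30.3% in COL18A1, 24.9% in NRP1, 23.6% in AGRN and 8.46% in SRGN. In CD44, which rose, it is 14.7%. The Log2FC of these genes are given here without the junction offset, and the part of this share in them was not tested. SRGN, serglycin, the intracellular proteoglycan of blood cells, had 12 and 5 counts in DU145-Esrrb and 0 and 1 after DY131 (Log2FC -3.39, adjusted p = 0.012). The SRGN call did not hold without DU145-Esrrb replicate 1 (0.101) or treated library a (0.0861). The sums of the immune and endothelial list and of the fibroblast list were also lowest in DY131-treated DU145-Esrrb. With Esrrb alone SRGN did not go with the former list. SRGN had means of 0.739 cpm in DU145-Esrrb and 1.23 cpm in DU145-pc3.1. The list summed to between 3.31 and 3.40 cpm in DU145-Esrrb and between 2.82 and 3.34 cpm in DU145-pc3.1. The part of other cells in the SRGN counts was not tested.

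Shedding and core protein processing were a list of 13 genes, of which 8 were tested. It holds proteases and lipid-cleaving enzymes that release members from the surface, proprotein convertases and a protease inhibitor. DY131 raised 3 and lowered 2 in DU145-pc3.1, against 37.4% of all genes called, and raised 2 and lowered 4 in DU145-Esrrb, against 58.7%. ADAM17, a sheddase of SDC1 and SDC4, fell from 109.5 ± 2.45 to 87.4 ± 3.81 cpm in DU145-pc3.1 (Log2FC -0.33) and from 107.4 ± 2.66 to 56.1 ± 3.59 cpm in DU145-Esrrb (Log2FC -0.93). MMP14, a membrane metalloprotease that also cleaves SDC1, rose in both (Log2FC 0.45 and 0.85), to 491.3 ± 15.5 cpm in DY131-treated DU145-Esrrb. NOTUM, a carboxylesterase first described as a releaser of glypicans, fell in both pools, from 30 and 31 counts to 13 and 9 (Log2FC -1.39, adjusted p = 0.0054, and 0.0574 with DESeq2) and from 39 and 25 to 6 and 10 (Log2FC -1.53, adjusted p = 0.0025). The other 2 that rose in DU145-pc3.1 were the convertases FURIN (Log2FC 0.19) and PCSK7 (Log2FC 0.36, with 11.2% of its windows shared with another gene). TIMP3 and MMP7 had no count in any library.

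Proteins that bind the cytoplasmic tail of syndecans or act below it were a list of 13, of which 12 were tested. With DY131, 5 rose and 2 fell in each pool, beside 37.4% of all genes in DU145-pc3.1 and 58.7% in DU145-Esrrb. SDCBP, syntenin, which binds the tails of all syndecans, fell in DU145-pc3.1 (Log2FC -0.21, adjusted p = 0.02) and rose in DU145-Esrrb (Log2FC 0.17, adjusted p = 0.04). Syntenin shares 6.37% of its 50-base windows with processed copies, and its reads could in part be split with them. ARF6, a small GTPase of syndecan recycling and the gene of this list with the highest mean over the 4 groups, rose in both pools (Log2FC 0.28 and 0.53). EZR, ezrin, also rose in both (Log2FC 0.38 and 0.67). CTTN, cortactin, an actin-binding Src substrate, rose from 146.3 ± 0.685 to 178.2 ± 10.7 cpm in DU145-pc3.1 (Log2FC 0.29, adjusted p = 0.0015) and fell from 131.7 ± 2.16 to 73.3 ± 0.662 cpm in DU145-Esrrb (Log2FC -0.84, adjusted p = 4.7e-08). The CTTN difference between the pools under DY131 was -1.28, and -0.64 with the junction offset.

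The FGF system was taken as a list of ligands, receptors, the carrier FGFBP1 and the intracellular FGF11, with 10 of 13 genes tested. DY131 raised 1 and lowered 2 in DU145-pc3.1 and raised 4 and lowered 2 in DU145-Esrrb, beside 37.4% and 58.7% of all genes called. FGF1, a ligand of all FGF receptors, had 8 and 9 counts in DU145-Esrrb and 24 in each library after DY131 (Log2FC 1.94, adjusted p = 0.00052). FGF5 rose from 1.73 ± 0.285 to 3.94 ± 0.140 cpm in the same comparison (Log2FC 1.19, adjusted p = 0.0029). FGFR4 fell from 26.1 ± 0.144 to 12.2 ± 0.0590 cpm there (Log2FC -1.10, adjusted p = 8.5e-07, and -0.79 with the junction offset), against a Log2FC of 0.10 in DU145-pc3.1 that did not pass (adjusted p = 0.46). FGFBP1, a carrier that frees FGFs from the matrix, fell in DU145-pc3.1 from 22.5 ± 1.18 to 10.3 ± 3.77 cpm (Log2FC -1.13, adjusted p = 0.00017) and in DU145-Esrrb (Log2FC -0.65, adjusted p = 0.0057). FGF11 was the other gene lowered in DU145-pc3.1 (Log2FC -0.59), but it shares 80.9% of its 50-base windows with the overlapping same-strand genes AC113189.2 and AC113189.4, so the value is uncertain. FGFR1, the gene of this list with the highest mean over the 4 groups, rose slightly in DU145-Esrrb (Log2FC 0.23, adjusted p = 0.0097).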

How the data were processed

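RNA of 8 DU145 libraries was sequenced as 50-base single reads from a stranded mRNA kit. After trimming (FASTX-Toolkit) and alignment to hg18 (TopHat2), the authors counted reads per gene with their own program and deposited those raw counts. Its treatment of strand and of reads with several positions is not given in the sources used here. Columns were assigned from the sample descriptions. The columns of DY131-treated DU145-Esrrb share 1 heading, so they are called a and b. P-values measure the spread between libraries, which may be technical in part.

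The 13856 of 23391 genes that reached 1 cpm in 2 or more libraries were fitted in 1 model of the 4 groups with edgeR 4.0.16 (R 4.3.3), with TMM scaling and the quasi-likelihood test. P-values were adjusted over these genes (Benjamini-Hochberg). The study used the exact test and a Log2FC of 1 in either direction. Cpm uses TMM-scaled totals. Counting intervals (95%) and floors (3 counts) cover counting error only. The script was tested on simulated data. Alternatives were edgeR's exact test, DESeq2 1.42.0, other scalings and filters, only the libraries compared, each library left out, a replicate block, and offsets for exon junction share or for length and GC content, from GENCODE 29 on GRCh38 (matched for 98.2% of tested genes). No protein sequences were used here.

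The members and gene lists were chosen with earlier results of these data known. Genes of the lists around the family were named for an adjusted p under 0.05 and a Log2FC of at least 1 in either direction in some comparison, or for the highest level of their list. Other genes were named as markers, to check the labels, for following SDC2 most closely, or for having no count in any library. EXT1, NAGLU, HPSE, XYLT2, CD44, ADAM17, FURIN, PCSK7, SDCBP, EZR and FGF11 were named after their values were seen. Some listed genes are not reported here.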

Additional observations from a re-analysis of the deposited data

Results flagged for a closer look

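The effect of DY131 differed between the cell pools, by the interaction in edgeR's quasi-likelihood test, for 2 members. The difference (DU145-Esrrb minus DU145-pc3.1, on the log2 scale, SE) was 0.4121 ± 0.0839 for SDC1 (adjusted p = 0.0016) and -0.2883 ± 0.0824 for GPC1 (adjusted p = 0.0138). Of all tested genes 33.7% passed this test. The GPC1 call was lost in 5 of 15 alternatives, among them the offset for length and GC content (-0.161, adjusted p = 0.178). Among the genes around the family the difference passed the test and a size of 1 for HSPG2 (-1.258 ± 0.151, adjusted p = 2.01e-05), AGRN (-1.112 ± 0.091, adjusted p = 3.9e-07), CTTN (-1.129 ± 0.0885, adjusted p = 2.42e-07), FGFR4 (-1.201 ± 0.151, adjusted p = 3.03e-05) and SRGN (-3.233 ± 1.2, adjusted p = 0.0482). With an offset for exon junction share each of the first 4 was under a size of 1 and still passed the test, at -0.7878 for HSPG2, -0.9177 for AGRN, -0.51 for CTTN and -0.913 for FGFR4. The SRGN difference rests on 0 and 1 counts in DY131-treated DU145-Esrrb, and its adjusted p was 0.173 with DESeq2 and up to 0.199 with a library left out (DU145-Esrrb replicate 1).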

How the results depend on the processing

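In the alternatives run, the rise of SDC1 and the fall of GPC1 with DY131 in DU145-Esrrb, the fall of GPC1 with DY131 in DU145-pc3.1, and the SDC1 difference between the pools under DY131 and its interaction kept direction and call. With Esrrb alone, 2 members passed, and from 0 to 3 did when a library was left out. With DY131 in DU145-pc3.1, GPC1 and SDC4 passed. The totals here also hold GPC4, for which the filter leaves no valid test, and were 3, and 5 with the offset for length and GC content. With DY131 in DU145-Esrrb, SDC1, SDC3 and GPC1 passed. Counting GPC4 as well, the total was 4, and 2 with DESeq2, where SDC3 and GPC4 did not pass. The SDC3 call was also lost when any library of these 2 groups was left out. Counts of enzymes called moved too. With DY131 in DU145-pc3.1, the linker and polymerisation list went from 5 to between 1 and 6 and the editing list from 4 to between 1 and 5. With DY131 in DU145-Esrrb, the sulfation list went from 4 to between 0 and 5 and the linker list from 4 to between 2 and 6. Some Log2FC that did not pass the test in the reported fit, or were a description there, turned. GPC4 with Esrrb alone became -0.01263 without DU145-pc3.1 replicate 2 (to 2.75 with another library left out). SDC3 with DY131 in DU145-pc3.1 became 0.01967 with the junction offset, 0.183 with the length and GC offset (which passed) and 0.007224 without DU145-pc3.1 replicate 1 (lowest with a library left out, -0.05524). With DY131 in DU145-Esrrb, SDC4 became -0.01805 with library size alone, -0.07077 with the junction offset and -0.01434 without DU145-Esrrb replicate 1 (to 0.09609 with a library left out), and GPC2 became 0.01613 and 0.1547 with the offsets and 0.5953 without DU145-Esrrb replicate 1 (from -0.5386). Under DY131, SDC3 became 0.04657 with the length and GC offset, SDC4 0.0001864 without DY131-treated DU145-pc3.1 replicate 2 (from -0.1974) and GPC2 0.3703 without replicate 1 (from -0.5751). The GPC2 interaction became -0.06415 without DU145-Esrrb replicate 2 and -0.005553 without DY131-treated DU145-pc3.1 replicate 2 (to 1.077). The cause was not tested. Same-numbered libraries did not deviate together (correlations 0.0917, 0.0229 and -0.0685). This check used the replicate numbers of the sample titles and left out DY131-treated DU145-Esrrb, so it cannot exclude a pairing. In the 6 numbered libraries the replicate block gave 2 members with Esrrb alone and, GPC4 included, 3 with DY131 in DU145-pc3.1. Without the block these were 2 and 2. Depth limits GPC3, GPC4, GPC5 and GPC6, which had at most 34 counts in a library.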
